A study of Mus musculus with 16 samples.

Results

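Brown adipose tissue (BAT) from mice that lack the glucocorticoid receptor (GR) gene in adipose tissue only was compared with BAT from control mice. The groups compared were 8 of the 16 samples of the series, chosen by their labels: 4 BAT samples titled AdipoKO and 4 titled CTL. The other 8 samples were white adipose tissue (WAT) of the same genotypes. All samples came from female mice, and the series describes the controls as wild type and the 4 samples of a group as biological replicates. Age, strain, diet, treatment and the promoter that drove the deletion are not given in the sources used here. Each sample was total RNA, labelled with Cy3 and hybridised to a single-colour Agilent whole mouse genome array. A level is the log2 signal of a gene minus the 75th percentile of its array, so a difference of 1 is a doubling and a negative level lies below that percentile. Differences are knockout minus control on this log2 scale, given with the standard error (SE) of the limma fit. That fit also held the WAT samples, so unless stated otherwise SEs and adjusted p-values take their spread from both depots. Means are given with the standard deviation (SD), n = 4 in each group.

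GR, encoded by Nr3c1, is a nuclear receptor that waits in the cytoplasm in a complex with the chaperone Hsp90, binds glucocorticoid hormone, and enters the nucleus to raise or lower transcription. In fat cells glucocorticoids influence adipocyte differentiation, lipid storage and lipolysis. Brown adipocytes burn lipid to make heat through the uncoupling protein Ucp1, and glucocorticoids are generally described as restraining that programme. The hormone's local supply depends on Hsd11b1, the endoplasmic reticulum enzyme that turns inactive 11-dehydrocorticosterone back into corticosterone.

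The samples matched their labelled tissue. Ucp1 was at 8.21, 8.44, 8.44 and 8.45 in controls and at 8.99, 8.65, 8.24 and 8.35 in knockouts, and the adipocyte hormone gene Adipoq was between 7.11 and 7.60 on all 8 arrays. The 75th percentile of the signal lay between 501 and 561 for controls and at 497 and 486 for knockouts 3 and 4, and was lower for knockouts 1 and 2 (298 and 320.2). Knockouts 1 and 2 also stood apart from the controls over bright probes. The SD of their log2 difference to a control was 0.675 to 0.718 for knockout 1 and 0.573 to 0.604 for knockout 2, against 0.286 to 0.353 for knockouts 3 and 4 and 0.203 to 0.276 between controls. Skeletal muscle transcripts varied as well. The level of 23 muscle markers, taken as the median deviation from each gene's mean over the 8 arrays, was -0.31, 0.24, -0.36 and -3.75 in controls 1 to 4 and -0.31, 2.41, 2.31 and -0.25 in knockouts 1 to 4. All 23 muscle markers were measured above background in BAT. In bulk tissue, fewer cells of a type and less RNA per cell cannot be told apart. Every slide carried a BAT control at one fixed place and a BAT knockout at another, so the place on the slide and the genotype cannot be told apart.

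Transcript of the receptor itself was lower in every knockout than in every control. Nr3c1 was at 2.33, 2.40, 2.53 and 2.70 in controls and at 1.30, 1.30, 1.45 and 1.76 in knockouts. The knockout mean was 48.8% of the control mean, a difference of -1.03 ± 0.18. The exact permutation test over samples gave p = 0.0286 (two-sided), the smallest that 4 samples against 4 allow, and the limma test over all features gave an adjusted p of 0.0814, which did not pass. Of the other 3 Nr3c1 probes, one differed by -1.08 without overlap, one by -0.40 with overlapping groups (exact permutation p = 0.314), and one by -1.89 at levels where only 1 of 4 knockout arrays was well above background. Where the deleted part lies relative to these probes is not given in the sources used here, so the values are levels of the probed transcript and not of working receptor. Nr3c2, the mineralocorticoid receptor that also binds corticosterone, differed by 0.36 ± 0.28 (adjusted p = 0.639).

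Of 25107 features tested, 4 passed the limma threshold of an adjusted p of 0.05, which is 0.0159% of all; 2 rose and 2 fell, 0.00797% in each direction. For 17.9% of features the 4 knockouts did not overlap the 4 controls, with knockouts higher in 9.34% and lower in 8.61%. The median difference of all features was 0.10, and 60.2% of differences were above 0 and 39.8% below. This split moved with the scaling: 45.6% were above 0 when arrays were scaled on their median, 53.4% after quantile normalization, 73.9% after normexp background correction, and 43.3% without knockouts 1 and 2.

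Hsd11b1 fell in knockout BAT. Its level was 5.35, 5.72, 5.30 and 5.63 in controls and 3.03, 3.2, 3.64 and 3.35 in knockouts, so the lowest control lay well above the highest knockout. The difference was -2.20 ± 0.27, a 4.59-fold lower level (adjusted p = 0.0342). Between arrays on the same slide it was -2.69, -2.10, -1.71 and -2.28. H6pd, which supplies Hsd11b1 with its cofactor in the endoplasmic reticulum, was at 3.96 to 4.11 in controls and 3.82 to 4.17 in knockouts (-0.030 ± 0.38, adjusted p = 0.989). Of the 12 listed genes of corticosteroid reception and steroid conversion, 8 passed the filter on dim probes. Hsd11b1 and Nr3c1, both lower in knockouts, were the only ones of these 8 whose groups did not overlap. That is 25% below all controls and 0% above, against 8.61% and 9.34% of all features. The 25% is made up of the deleted gene and the gene already called, so it is no result about the other members. The steroid reductase genes Srd5a1 and Srd5a3 and the steroid efflux pump genes Abcb1a and Abcb1b differed by -0.19, 0.0039, -0.053 and 0.085.

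Msmo1, the sterol-C4 methyl oxidase that strips methyl groups from lanosterol-derived intermediates of cholesterol synthesis, also fell. It was at 2.86, 2.95, 2.87 and 2.93 in controls, a narrow range, and at 1.60, 1.5, 1.97 and 1.88 in knockouts. The difference was -1.17 ± 0.16, or 2.24-fold lower (adjusted p = 0.0487). The slide differences were -1.36, -1.37, -0.88 and -1.05.

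Nr4a2 rose. It encodes Nurr1, an orphan nuclear receptor and immediate early gene that cAMP and stress signals induce. Controls were at 1.26, 1.66, 0.96 and 1.51 and knockouts at 3.07, 3.14, 2.62 and 3.09, with no overlap. The difference was 1.63 ± 0.23, or 3.10-fold higher (adjusted p = 0.0487). The slide differences were 1.41, 2.18, 1.36 and 1.57.

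Magel2, which is imprinted, active on the paternal copy and lost in Prader-Willi syndrome, rose from a low level. Controls were at -4.48, -4.28, -3.81 and -4.36 and knockouts at -1.94, -1.01, -1.16 and -1.10. The difference was 2.93 ± 0.42, or 7.63-fold higher (adjusted p = 0.0487), and the gene was well above background on all 8 arrays. Its control levels were near the lowest level well above background on those arrays (-5.18, -4.99, -4.97 and -4.64). The size is therefore uncertain, and it ranged from 1.79 to 3.14 over 32 alternatives of processing and samples. Knockout 1 was the lowest of its group and still lay above every control.

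Whether these 4 calls passed depended on the arrays and terms of the model. All 4 were kept with BAT arrays alone and without WAT knockout 4 or BAT knockout 4. They were lost with slide as a block, without BAT knockouts 1 and 2, and with a muscle term. With slide as a block, each slide holding 1 BAT control and 1 BAT knockout, the differences were the same, the adjusted p-values were 0.0945 for Hsd11b1, 0.176 for Msmo1, 0.188 for Nr4a2 and 0.116 for Magel2, and no feature passed (3111 at an unadjusted p under 0.05). With knockouts 1 and 2, which stood apart, left out, Hsd11b1 differed by -2.01, Msmo1 by -0.98, Nr4a2 by 1.5 and Magel2 by 3.10, and no feature passed; 997 features then had an unadjusted p under 0.05. The muscle list's level, taken here over the samples of both depots, was also used as a term of the model. The differences of the same 4 genes were then -2.28, -1.18, 1.67 and 2.61. Again no feature passed the threshold (2194 at an unadjusted p under 0.05). In WAT the same genes differed by -0.98, -0.28, 0.13 and 1.01, none past the threshold, and no interaction of genotype with depot passed for them (adjusted p 0.347 to 0.378), so a difference between depots was not shown.

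**Figure D1:**
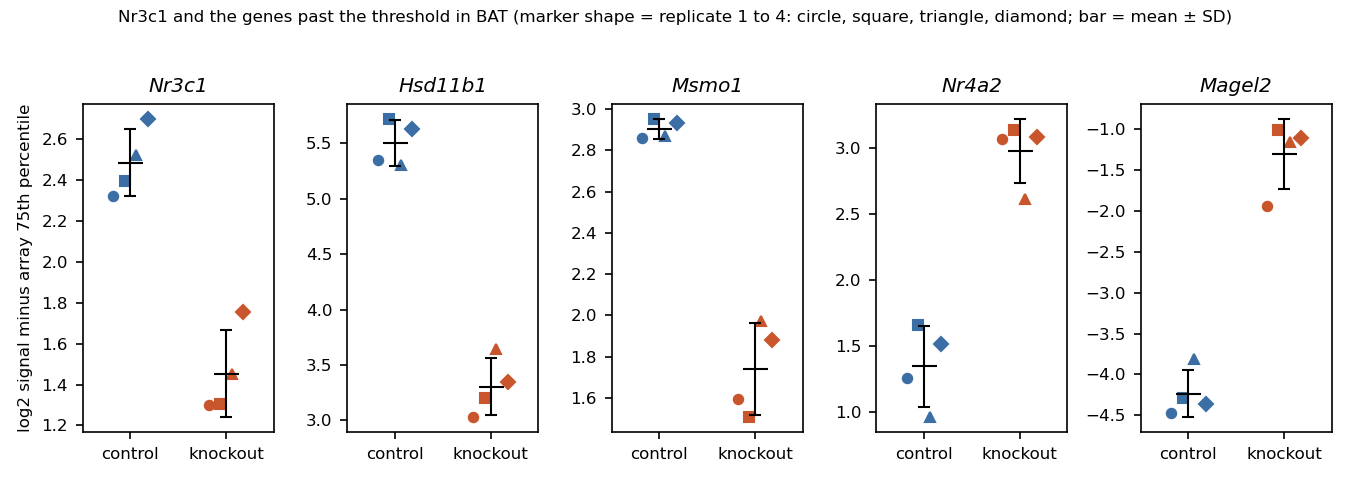
Level of Nr3c1 and of the 4 genes past the threshold in each BAT sample (log2 signal minus the array's 75th percentile; each gene has its own axis range). Points are the 4 controls and 4 knockouts, with marker shape for the replicate number, and bars are mean ± SD; in each panel the groups do not overlap, for example 5.30 to 5.72 against 3.03 to 3.64 for Hsd11b1.

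A fit of the 8 BAT arrays alone, which takes the spread from BAT only, called 12 features: the same 4 and 8 more. Among the others, Orm3, an acute phase orosomucoid gene, was at 1.89, 1.75, 1.76 and 1.77 in controls and at 0.37, -0.0043, 0.32 and 0.36 in knockouts, a 2.89-fold lower level. Cyp2b10, a cytochrome P450 gene and classical target of the nuclear receptor CAR, was at -3.87 to -2.70 in controls and well above background on 0 of 4 knockout arrays, so its level was at least 2.18-fold lower. Acss3, a mitochondrial short-chain acyl-CoA synthetase gene, was at -0.93 to -0.83 in controls and -2.20 to -1.97 in knockouts. Prodh, the first enzyme of proline breakdown, was 2.24-fold lower. Prnd, the prion-like protein gene doppel, was at -3.68, -3.97, -4.09 and -3.50 in controls and at -1.27, -1.34, -1.92 and -1.81 in knockouts, 4.68-fold higher. Ranbp3l was 2.63-fold higher, Gm8300 was 2.54-fold lower, and a probe with no gene name here, A_51_P482968, was 2.91-fold higher. In the fit over both depots these 8 had adjusted p-values between 0.0814 and 0.298 and did not pass.

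The cholesterol pathway around Msmo1 was lower as a group. Of 20 enzymes from acetyl-CoA to cholesterol, all 20 tested, 18 were lower in knockouts and 2 higher, with a median difference of -0.67 against 0.10 over all features. In 12 of the 20, or 60%, every knockout lay below every control, where 8.61% of all features did so. Msmo1 was the only member that passed the test over all features. The level of the list was 0.55, 0.55, 0.28 and 0.27 in controls and -0.33, -0.33, -0.12 and -0.42 in knockouts, without overlap. Without knockouts 1 and 2, 19 of 20 were lower, 15 without overlap (75%, against 18.9% of all features), and the median was -0.62 against -0.052.

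The 4 lowest differences of the pathway were in Sqle, Cyp51, Fdps and Lss, which act from farnesyl diphosphate to the early sterols. Sqle, the squalene epoxidase and a rate-controlling step, was at 2.53, 3.0, 1.77 and 2.01 in controls and at -0.12, 0.31, 1.41 and 0.72 in knockouts (-1.75 ± 0.32, adjusted p = 0.0991). Cyp51, the lanosterol 14-demethylase, was at -0.01 to 0.39 in controls and at -2.14, -1.47, -0.59 and -1.03 in knockouts (-1.48 ± 0.32, adjusted p = 0.155). Fdps, the farnesyl diphosphate synthase, was at 3.48 to 4.17 in controls and at 1.89, 2.47, 3.02 and 2.37 in knockouts (-1.39 ± 0.33, adjusted p = 0.181). For these genes and for Lss (-1.24), Nsdhl (-1.04), Sc5d (-1.04) and Idi1 (-1.0), knockout 1 was the lowest of the 4 and knockout 3 the highest. Mvd, the last mevalonate pathway decarboxylase, had another order, with knockout 4 the lowest at -1.22 against -0.45, -0.46 and -0.74 in the other knockouts.

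Hmgcs1, the cytosolic HMG-CoA synthase, was at 5.10 to 5.93 in controls and 4.94 to 5.09 in knockouts (-0.51 ± 0.39). Ebp, a sterol isomerase, differed by 0.11 and was at -0.037 under median scaling.

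**Figure D2:**
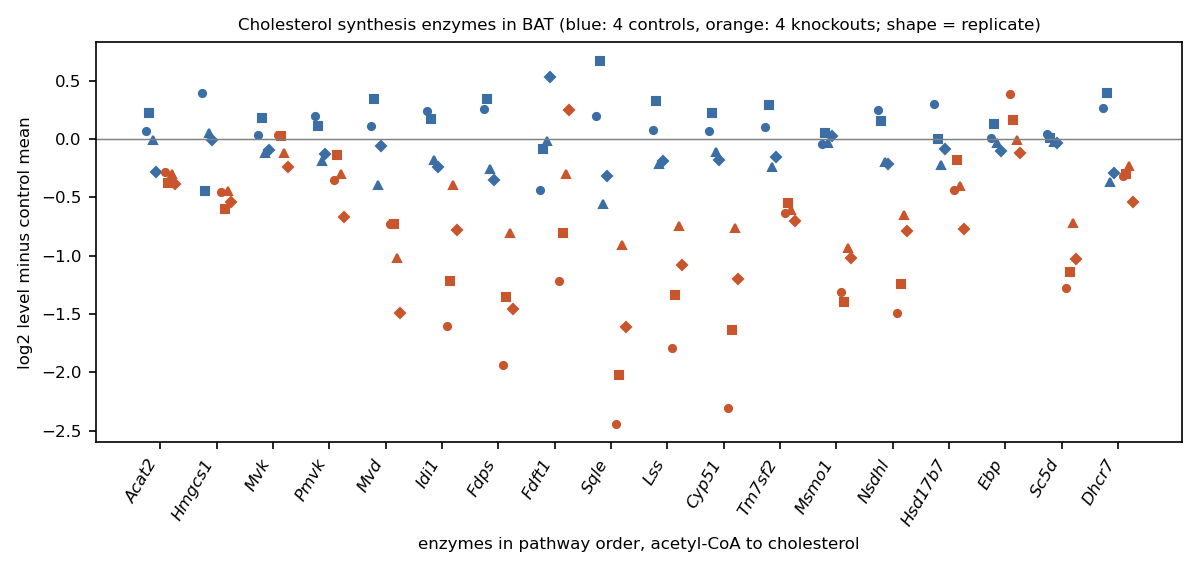
Log2 level of 18 of the 20 cholesterol synthesis enzymes minus the control mean of each, in pathway order; points are the 4 control and 4 knockout BAT samples and shapes are replicate numbers. Knockout points lie below all controls for 11 of the 18 enzymes drawn, and reach furthest down at Sqle and Cyp51.

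Genes that sense and move sterols did not share one direction. Of 23 tested, 10 were higher and 13 lower, with 2 and 4 without overlap (8.70% and 17.4%, against 9.34% and 8.61% of all features), and none passed. Insig1, which holds the SREBP precursor in the endoplasmic reticulum, was at 1.75 to 2.19 in controls and 1.15 to 1.39 in knockouts (-0.82 ± 0.45). Srebf2, which encodes the transcription factor that drives these sterol genes, was at -0.96 to -0.75 in controls and -1.22 to -0.80 in knockouts, so its groups overlapped (-0.18 ± 0.46). Apoe, a lipoprotein of cholesterol transport, was at 6.35 to 7.19 in controls and 7.38 to 7.90 in knockouts (0.72 ± 0.25, adjusted p = 0.255).

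Promoter sequence was examined for the genes that passed and for the sterol enzymes. Windows ran from 250 bases before to 50 bases after the start of a gene in RefSeq (GRCm38.p6), and 15 of the 20 sterol enzymes had 1 or more, 18 windows in all. CCAATC or its reverse complement GATTGG, the CCAAT box bound by NF-Y with one flanking base, stood in 13 of the 18 windows (72.2%), against 16.1% of 32851 promoter windows searched on both strands. This motif was chosen after the windows had been seen. The sterol element TCACNCCAC stood in 1 of 18, that of Hmgcs1, against 1.24% of all windows. The full glucocorticoid response element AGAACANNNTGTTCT stood in 0 of 18 and in 0.00913% of all windows, and its 6-base part AGAACA in 4 of 18 (22.2%), near its share of 19% of all windows. CCAATC stood in the window of Hsd11b1, with its first base 72 bases before the start, and in Msmo1 at 96 and Cyp51 at 29 bases before it, and the reverse complement GATTGG stood in Lss at 63. The motif also stood in the windows of Mvk and Ebp, which differed by -0.074 and 0.11, so it was not particular to genes that were clearly lower. The window of Magel2, which rose, held no match to any of the motifs searched. A match is a match of letters and no evidence of binding in these samples. The windows of Hsd11b1 (chr1:193242311-193242610, minus strand), Msmo1 (chr8:64733529-64733828, minus), Cyp51 (chr5:4104648-4104947, minus) and Lss (chr10:76531355-76531654, plus) are printed because the motif is shared between the 2 genes that fell and 2 sterol enzymes that were lower; capitals mark CCAATC or GATTGG.
Hsd11b1: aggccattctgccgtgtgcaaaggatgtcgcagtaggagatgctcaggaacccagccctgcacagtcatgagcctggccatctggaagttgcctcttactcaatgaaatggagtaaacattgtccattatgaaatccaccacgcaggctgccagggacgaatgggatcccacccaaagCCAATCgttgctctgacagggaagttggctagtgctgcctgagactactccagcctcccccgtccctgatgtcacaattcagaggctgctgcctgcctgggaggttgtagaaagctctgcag
Msmo1: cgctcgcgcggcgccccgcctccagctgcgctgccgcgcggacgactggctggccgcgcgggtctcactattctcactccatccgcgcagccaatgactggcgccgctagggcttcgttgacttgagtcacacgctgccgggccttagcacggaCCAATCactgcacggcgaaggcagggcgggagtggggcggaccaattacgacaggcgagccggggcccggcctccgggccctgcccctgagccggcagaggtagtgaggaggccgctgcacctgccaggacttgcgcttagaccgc
Cyp51: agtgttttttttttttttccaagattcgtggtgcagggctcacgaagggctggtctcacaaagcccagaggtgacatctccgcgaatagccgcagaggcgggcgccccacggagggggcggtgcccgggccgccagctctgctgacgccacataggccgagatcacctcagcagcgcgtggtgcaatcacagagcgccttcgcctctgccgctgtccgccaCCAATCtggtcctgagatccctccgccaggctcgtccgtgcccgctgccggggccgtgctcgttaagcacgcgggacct
Lss: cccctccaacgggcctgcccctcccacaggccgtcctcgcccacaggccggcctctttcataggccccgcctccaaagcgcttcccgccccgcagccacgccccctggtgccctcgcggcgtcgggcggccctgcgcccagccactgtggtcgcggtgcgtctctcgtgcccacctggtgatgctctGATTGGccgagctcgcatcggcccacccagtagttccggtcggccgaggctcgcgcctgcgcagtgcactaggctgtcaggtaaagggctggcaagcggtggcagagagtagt

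For Nr4a2, an immediate early gene, the letters of interest were those of the cAMP response element. The full element TGACGTCA was not in its window (1.79% of all windows hold it). Its 5-base core TGACG, or the reverse complement CGTCA, stood there 4 times, with first bases 200, 144, 123 and 111 bases before the start. Of all windows, 20.8% hold at least 1. The share that holds 4 was not counted, so whether 4 is unusual is not known. The Nr4a response element AAAGGTCA and the E-box CACGTG were not found in the Nr4a2 window (1.51% and 7.15% of all windows). The window (chr2:57123954-57124253, minus strand, GRCm38.p6) is shown because it holds the core 4 times, with the core in capitals.
Nr4a2: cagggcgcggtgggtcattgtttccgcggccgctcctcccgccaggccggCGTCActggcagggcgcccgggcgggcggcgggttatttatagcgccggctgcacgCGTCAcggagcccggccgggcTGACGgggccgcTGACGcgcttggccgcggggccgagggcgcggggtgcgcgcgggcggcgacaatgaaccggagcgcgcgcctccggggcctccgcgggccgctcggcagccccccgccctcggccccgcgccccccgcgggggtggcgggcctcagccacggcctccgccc

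The genes that answer to cAMP and stress, counted with Nr4a2 among them, were mostly higher but few separated. Of 26 tested members of the Nr4a and immediate early list, 22 were higher and 4 lower (median 0.45). Over all features 60.2% were higher. Nr4a2 passed and no other did. Knockouts were above all controls in 3, Nr4a2 included (11.5%, against 9.34% of all features), and below in 1 (3.85%, against 8.61%). Nr4a1, the closest relative of Nr4a2, was at 4.74, 6.36, 4.96 and 6.26 in controls and at 5.66, 6.14, 5.87 and 6.66 in knockouts (0.50 ± 0.36, adjusted p = 0.603). Fos ranged from -3.46 to -1.15 in controls and from -2.93 to -0.70 in knockouts. Egr1 was at 4.30 and 4.07 in knockouts 1 and 4 and at 1.70 and 1.05 in knockouts 2 and 3, either side of the controls at 2.09 to 3.17. Klf6, a Krüppel-like early response factor, was at 2.31 to 2.73 in controls and 2.98 to 3.84 in knockouts (0.82 ± 0.21, adjusted p = 0.190). With knockouts 1 and 2 left out, 15 of the 26 were higher and the median was 0.21.

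Genes that glucocorticoid is known to induce showed no common direction. Of 33 listed, 31 were tested; 20 were higher and 11 lower in knockouts, 4 and 2 without overlap (12.9% and 6.45%, against 9.34% and 8.61% of all features), none passed, and the median was 0.17. Mt2, a metallothionein that glucocorticoid and metals induce, was at 5.87, 6.36, 6.03 and 5.86 in controls and at 3.87, 4.05, 4.67 and 4.56 in knockouts, 3.34-fold lower without overlap (-1.74 ± 0.40, adjusted p = 0.177). Mt1 was at 5.61 to 5.93 in controls and 5.14 to 5.42 in knockouts (-0.57 ± 0.42). The other 6 members of the metallothionein and zinc list differed by -0.23 to 0.36 and overlapped.

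Other classical targets had higher or overlapping levels in knockouts. Ddit4, which restrains mTOR signalling, was at 3.43, 3.33, 3.86 and 3.68 in controls and at 5.0, 6.17, 4.88 and 4.53 in knockouts (1.57 ± 0.38, adjusted p = 0.182). Tsc22d3, which encodes the glucocorticoid-induced leucine zipper GILZ, was at 0.72, 0.76, 1.62 and 1.29 in controls and at 1.66, 2.44, 1.98 and 1.5 in knockouts, with overlap (0.80 ± 0.27, adjusted p = 0.251). Fkbp5, the co-chaperone often read as a GR activity marker, was at 0.95 in knockout 2 and between -2.34 and -0.86 in the other 3, against -2.60 to -1.34 in controls (1.03 ± 0.66). Knockout 2 was the highest of the 4 knockouts for Ddit4, Tsc22d3 and Fkbp5, and for the kinase gene Sgk1 and the clock gene Per1. Per1 and the GR-responsive factor Klf9 overlapped between groups (0.41 and -0.028).

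The GR chaperones were lower in 9 of 14, with 4 below all controls (28.6%, against 8.61% of all features) and none past the threshold. Hsp90aa1, the inducible form of Hsp90, was at 5.86, 6.11, 5.63 and 5.52 in controls and at 4.55, 4.79, 5.14 and 4.94 in knockouts (-0.93 ± 0.18, adjusted p = 0.103). Its constitutive partner Hsp90ab1 differed by -0.14 and Fkbp4 by -0.12. Of 12 coregulators, Ncor1 and Sirt1 were above all controls at 0.65 and 0.72 and Hexim1 below at -0.48. These are shares of 16.7% and 8.33%, against 9.34% and 8.61% of all features. Ncor1 was at 4.04 and 3.90 in knockouts 1 and 2 but at 3.29 and 3.28 in knockouts 3 and 4, near the highest control at 3.2. Sirt1 was likewise at 2.45 and 2.34, then 1.42 and 1.35, with the highest control at 1.33.

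**Figure D3:**
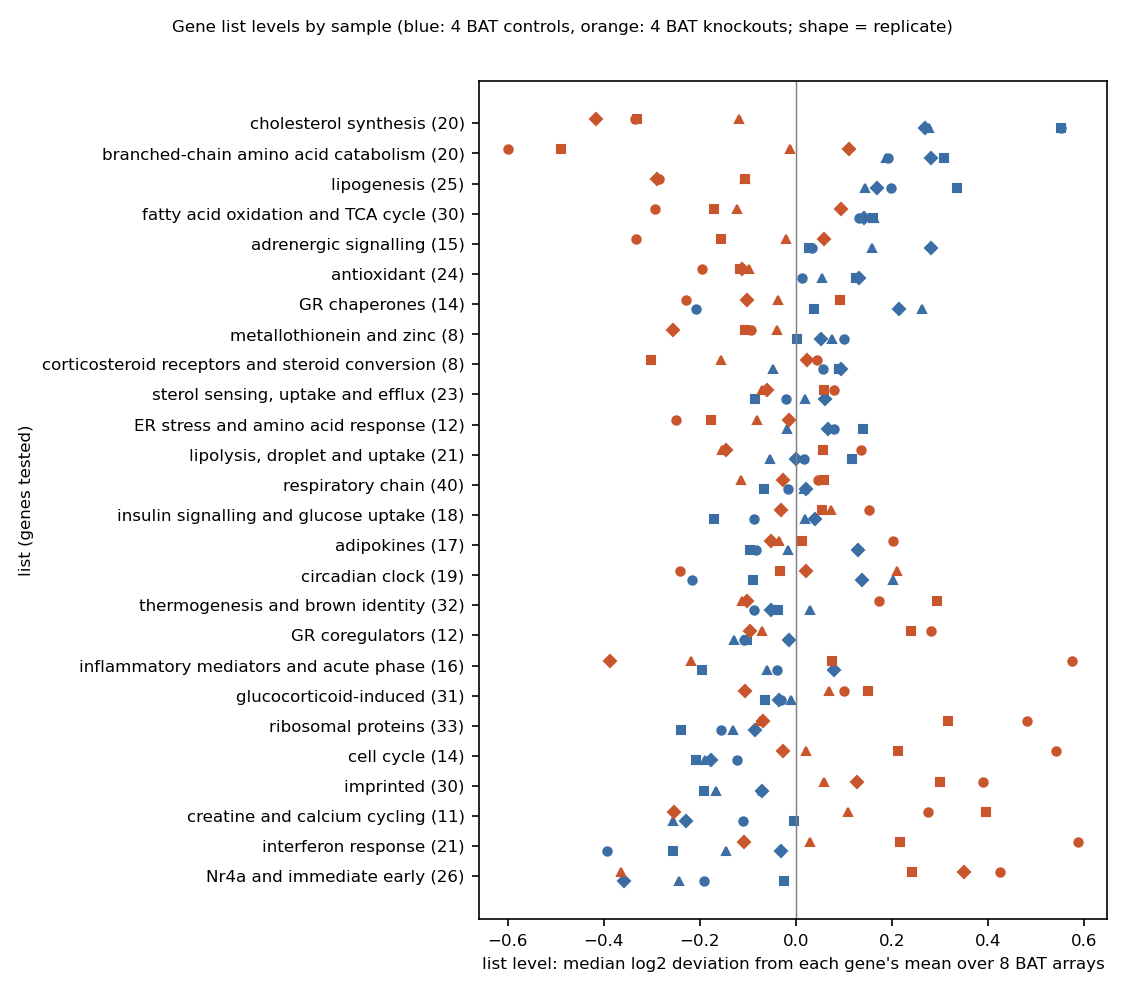
Level of each pathway list in each BAT sample, as the median log2 deviation of its tested genes from their means over the 8 arrays; points are 4 controls and 4 knockouts with shapes for replicates, and lists are ordered by median difference. Cholesterol synthesis has the widest gap, from -0.12 in the highest knockout to 0.27 in the lowest control, while the thermogenesis list overlaps.

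Fatty acid and triglyceride synthesis was lower with a mixed set of members. Of 25 lipogenesis genes, 19 were lower and 6 higher, 14 without overlap (56.0%, against 8.61%) and none past the threshold; the median was -0.45. The level was 0.20, 0.33, 0.14 and 0.17 in controls and -0.29, -0.11, -0.11 and -0.29 in knockouts. Agpat2, which acylates lysophosphatidic acid on the way to triglyceride, was at 6.14, 6.23, 5.98 and 6.02 in controls and at 4.40, 4.86, 5.07 and 4.93 in knockouts (-1.28 ± 0.64, adjusted p = 0.414). Scd2, a stearoyl-CoA desaturase, was at 5.71 to 6.43 in controls and 4.45 to 5.5 in knockouts. Acly, which makes cytosolic acetyl-CoA from citrate, was at 5.97 to 6.42 in controls and 4.99 to 5.95 in knockouts. Fasn, the fatty acid synthase, and Scd1 overlapped, at 0.30 and 0.10. In knockouts 3 and 4 alone, all 25 were lower, 15 without overlap (60%, against 18.9%), with a median of -0.42.

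Mitochondrial oxidation was lower to a lesser extent, and more so in knockouts 1 and 2. Of 30 genes of fatty acid oxidation and the TCA cycle, 23 were lower, 12 without overlap (40%, against 8.61% of all features), and none passed (median -0.33). Dld, a shared subunit of the pyruvate and 2-oxoglutarate dehydrogenases, was at 6.42 to 6.49 in controls and at 4.46, 4.92, 5.81 and 6.22 in knockouts (-1.11 ± 0.39, adjusted p = 0.263). Branched-chain amino acid breakdown had 17 of 20 genes lower, 10 without overlap (50%, against 8.61%), with none past the threshold and a median of -0.50. Pcca, which carboxylates propionyl-CoA, was at 4.65 to 5.01 in controls and at 2.31, 2.86, 4.08 and 4.40 in knockouts. Ppm1k, the phosphatase that activates the branched-chain ketoacid dehydrogenase, was higher at 0.45. Those medians were -0.19 and -0.23 without knockouts 1 and 2, against -0.052 over all features. The part of these 2 arrays in the larger differences was not tested. Of 40 respiratory chain subunits, 20 were higher and 20 lower (median 0.030), with 0 above all controls and 10 below (25%, against 8.61%). Without knockouts 1 and 2, 29 of the 40 were lower, 14 without overlap (35%, against 18.9%). Of 24 antioxidant genes, 18 were lower, 8 without overlap (33.3%, against 8.61%), with a median of -0.13. None of either list passed.

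Thermogenic genes were split in direction. Of 32 thermogenesis and brown identity genes, 18 were higher and 14 lower, with a median of 0.12 that was -0.027 under median scaling. Knockouts lay above all controls in 3 (9.38%, against 9.34% of all features) and below in 6 (18.8%, against 8.61%), and none passed. Without knockouts 1 and 2, 20 of the 32 were lower, 9 without overlap (28.1%, against 18.9%). Dio2, the deiodinase that makes active thyroid hormone, differed by 0.16 ± 0.48, the coactivator Ppargc1a by 0.38 ± 0.49, and Cidea, a lipid droplet gene, by 0.24 ± 0.50. Elovl3, which elongates very long chain fatty acids and is a strong brown fat marker, was the exception in size, at 4.26, 4.91, 3.47 and 3.94 in controls and 1.07, 2.21, 2.19 and 0.83 in knockouts (-2.57 ± 0.62, 5.95-fold, adjusted p = 0.182). Acot2 and Acot11, acyl-CoA thioesterases, were below all controls at -0.61 and -0.82.

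Genes of adrenergic signalling, the pathway by which noradrenaline switches on brown fat, were lower in 9 of 15, 2 of them below all controls (13.3%, against 8.61%), with none past the threshold and a median of -0.23. Adcy3, an adenylyl cyclase that makes cAMP, was at 1.17, 1.77, 1.70 and 1.75 in controls and at -0.40, 0.32, 1.19 and 1.14 in knockouts, so knockout 3 lay just above control 1 (-1.03 ± 0.35, adjusted p = 0.246). Pde3b, which breaks cAMP down, and Adra1a, an alpha-1 receptor, were below all controls at -0.63 and -0.51. The beta-1 receptor gene Adrb1 overlapped at -0.23. Without knockouts 1 and 2 the median of this list was -0.078, near that of all features at -0.052.

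Genes of insulin signalling and glucose uptake had 11 of 18 higher and 7 lower, with none past the threshold and a median of 0.073. Insr, the insulin receptor, was at 1.08 to 1.29 in controls and at -0.60, -0.21, 0.92 and 1.22 in knockouts, so that only knockout 4 lay within the control range. Hk2, the hexokinase that traps glucose in insulin-responsive tissue, was below all controls at -0.75 ± 0.40. Lipolysis, lipid droplet and lipid uptake genes had 11 of 21 higher and 10 lower, with a median of 0.0082 that was negative under the median scaling.

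Imprinted genes, counted with Magel2 among them, were often higher. Of 35 listed, 30 were tested and the median was 0.43. Of these, 21 were higher, where 60.2% of all features were, and 9 did not overlap (30%, against 9.34%). The other 9 were lower, 3 without overlap (10%, against 8.61%). Nnat, the paternally expressed neuronatin, was at -0.94, -1.30, -1.60 and -0.40 in controls and at 1.34, 0.23, 1.62 and 0.25 in knockouts (1.92 ± 0.57, adjusted p = 0.209). Mest was at -2.07 to -1.54 in controls and at -0.13, -0.64, -0.42 and -0.95 in knockouts (1.22 ± 0.37, adjusted p = 0.212). The maternally expressed Cdkn1c and Meg3 were above all controls at 1.03 and 0.71. Ndn, the neighbour of Magel2 in the Prader-Willi region, overlapped at 0.15 ± 0.43, as did Igf2 at 0.41. Nap1l5, also paternally expressed, was below all controls at -1.26. Leaving knockouts 1 and 2 out, 20 of 30 were higher, 11 without overlap (36.7%, against 12.4%), and the median was 0.23.

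Among named genes whose groups did not overlap, the largest higher values after Magel2 were Tnnc1 at 2.59, Fndc5 at 2.36, Prnd at 2.23, Padi2 at 2.07 and Nnat at 1.92. Tnnc1, the slow troponin C of muscle, was at -2.80 to -1.54 in controls and at -0.97, 2.65, 1.65 and -1.30 in knockouts, high in the same 2 knockouts, 2 and 3, that held the most muscle transcript. With the muscle level as a covariate Tnnc1 differed by 1.04, Padi2 by 0.88, Sync by 1.06, Srpk3 by 0.88 and Prkcq by 1.26. In that fit Fndc5 differed by 2.48 and Dusp3 by 1.31. Tnnc1 is itself one of the markers that make up the muscle level, so its value there is not independent of the covariate. Fndc5, the precursor gene of irisin, was at 0.24, -0.56, 1.25 and 0.17 in controls and at 2.58, 2.89, 2.57 and 2.51 in knockouts (adjusted p = 0.190). None of these but Magel2 and Nr4a2 passed.

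The largest lower values besides those above were in genes of diverse function. Tfr2, the transferrin receptor that senses iron, was at 2.88, 2.58, 1.94 and 1.94 in controls and at 0.20, 0.39, 0.88 and 0.86 in knockouts (-1.75 ± 0.33, adjusted p = 0.103). Cyp2b13, a relative of Cyp2b10, was at -2.88 to -1.95 in controls and -5.56 to -3.97 in knockouts, where 1 of 4 arrays was well above background, so the size of the difference and its rank are uncertain; these cytochrome genes are close in sequence, so their probes may share signal. Rtn4, Amy2a5 and Tmeff1 were at -1.66, -1.64 and -1.64, with knockouts 1 and 2 the lowest: Rtn4 was at 5.42 to 5.57 in controls, 2.40 and 3.08 in knockouts 1 and 2, and 4.83 and 4.95 in knockouts 3 and 4.

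**Figure D4:**
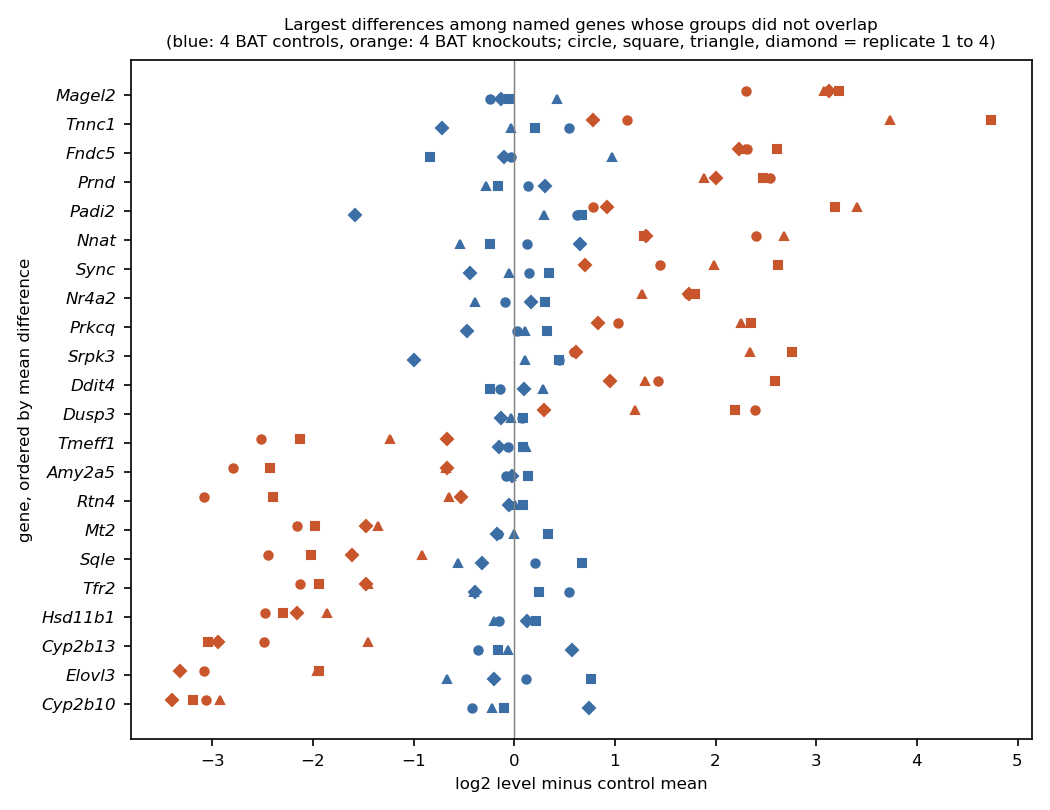
Log2 level minus the control mean of the 12 largest higher and 10 of the 12 largest lower genes whose 4 knockouts did not overlap the 4 controls; points are single BAT samples and shapes are replicates. Magel2 knockouts lie together, at -1.94 to -1.01 on the level scale, while Tnnc1 and Padi2 spread by knockout and Rtn4 splits knockouts 1 and 2 from 3 and 4.

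The other transcripts of the tissue were compared through marker lists. Adipocyte markers shared by white and brown fat had a median difference of 0.045 and brown adipocyte markers 0.19, with overlapping levels. Endothelial markers were higher in 13 of 14, 6 without overlap (42.9%, against 9.34% of all features), but only the levels of knockouts 1 and 2 (0.85 and 0.57) were far from the controls (-0.33 to -0.19), and knockouts 3 and 4 were at -0.18 and -0.17. The median, 0.55, was 0.10 without knockouts 1 and 2, against -0.052 over all features. Of the 14, 6 were then above all controls and 2 below (42.9% and 14.3%, against 12.4% and 18.9% of all features). Mural markers followed the same order, at 0.91, 0.50, -0.48 and -0.17 in knockouts. Ribosomal protein genes were higher in 28 of 33, 12 without overlap (36.4%, against 9.34%). Their levels were 0.48 and 0.32 in knockouts 1 and 2 and -0.076 and -0.068 in knockouts 3 and 4. Their median of 0.33 was 0.074 without knockouts 1 and 2. Of the 33, 13 were then above all controls and 2 below (39.4% and 6.06%, against 12.4% and 18.9% of all features). Macrophage markers overlapped at 0.14. No member of these lists passed the test. The part of cell content in the other results was not tested beyond the muscle term above.

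**Figure D5:**
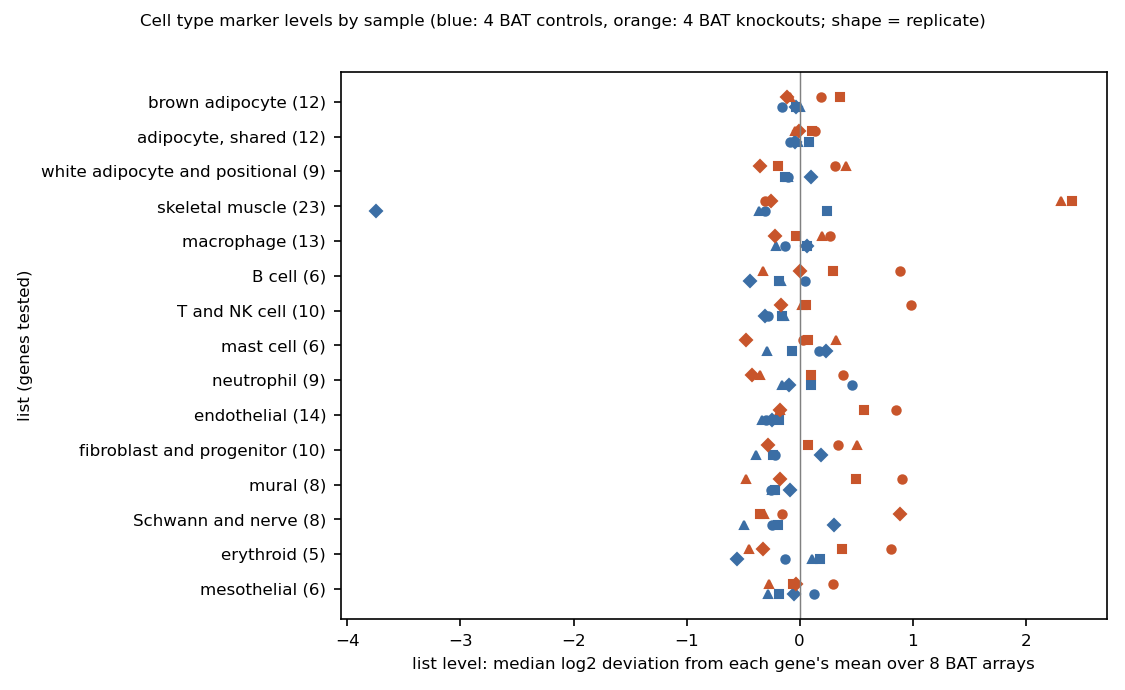
Level of each cell type's marker list in each BAT sample, computed as for the pathway lists; points are 4 controls and 4 knockouts with shapes for replicates. Muscle markers range from -3.75 in control 4 to 2.41 in knockout 2, and endothelial and mural markers are highest in knockouts 1 and 2.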

How the data were processed

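Total RNA from 16 adipose samples was measured on Agilent arrays. Images were extracted with Feature Extraction 12.0.0.7, per the file headers. The processed signal of that program is, per the file headers, a linear intensity from which background and spatial trend had been removed, not scaled between arrays; the deposited value table holds the same intensity. The deposited flag columns are 0 or 1 per spot and are of another kind. Spots that the program called non-uniform or outliers were left out, and spots of 1 probe were averaged. The log2 processed signal, less the 75th percentile on that array, was a level. Probes well above background on at least 3 of 4 arrays of 1 group were kept. RefSeq accessions named 28223 of 41174 probes, and the brightest probe stood for a gene, which left 16677 genes and 8430 unnamed probes.

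Limma 3.58.1 (lmFit and eBayes, R 4.3.3) fitted 1 mean for each of 4 groups; WAT knockout arrays 1 and 2 were averaged, since the robust SD of their log2 difference over bright probes was 0.083, against 0.087 from repeat spots of single probes and 0.18 to 1.23 for other pairs of WAT knockouts. Tests were two-sided, Benjamini-Hochberg adjusted over all 25107 features. Fold bounds against dim groups use the lowest signal well above background. Groups came from the titles. The number of arrays limits the precision. Simulated data were used to test the scripts. The members, lists and tests were chosen with earlier results of these data known.

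Genes named were Nr3c1, Hsd11b1, Msmo1 and Nr4a2, all calls of both fits, the 12 largest higher and lower values without overlap, the 3 smallest p-values of each list, and whole lists of cholesterol synthesis, steroid conversion and metallothioneins. A few genes that this rule names are not reported here, though they stay in the list counts. Other list members were named after their values were seen. Alternatives covered background correction, scaling, filters, probe summaries, samples, blocks, covariates and weights.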

Additional observations from a re-analysis of the deposited data

Results flagged for a closer look

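In 17 of 334 groups of 4 samples examined (5.09%), 1 sample stood apart from the other 3 by Dixon's test; chance gives about 1 in 20. Among the genes that passed, Nr4a2 was lowest in knockout 3 (2.62, others 3.07 to 3.14) and Magel2 was lowest in knockout 1 (-1.94). Orm3 stood apart in control 1 (1.89) and knockout 2 (-0.0043). Control 4 held the lowest level of the muscle list (-3.75), of Ckm (-2.57) and of Padi2 (-4.52), and the highest of Srd5a3 (0.050) and of the white adipocyte list (0.10). Other single samples apart were Adcy3 in control 1 (1.17), the least bright Nr3c1 probe in control 1 (-3.40), Acot2 and Slc39a8 in control 2 (0.67 and -2.32), Oasl2 in knockout 1 (0.17), Abcb1a in knockout 2 (-4.04), and Slc39a14 and the Schwann cell list in knockout 4 (-1.90 and 0.89).

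The fit gave Slc6a2, the noradrenaline transporter, an interaction of genotype with depot of 3.19 (limma adjusted p = 0.00374), from 0.44 in BAT and -2.75 in WAT. Its probe was well above background on 0 of 8 BAT arrays, on 4 of 4 WAT control arrays and on 0 of 4 WAT knockout arrays. No fall could have been seen in BAT, so a difference between depots is not shown, and these values are not measured sizes. It was the only one of 25107 features whose interaction passed.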

How the results depend on the processing

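The count of features past the threshold, 4, was 3 with median scaling, 6 after quantile normalization, and stayed at 4 with flagged spots kept, with the value table, with the mean of a gene's probes, with the percentile over detected probes and with a trended, robust prior. It was 0 after normexp (1940 features at an unadjusted p under 0.05), with no filter (3438), with slide as a block (3111), with the replicate block (3049), with the muscle level as a covariate (2194) and without BAT knockouts 1 and 2 (997). It was 12 for BAT arrays alone, 15 for probes well above background on every BAT array, 22 with WAT knockouts 1 and 2 as 2 samples, and 4785 with array weights, whose estimation stopped before it converged (weights 0.0655 to 31.0). Leaving out 1 sample gave 0 to 84: 84 without WAT knockout 4, 79 without BAT knockout 4, and 0 without WAT controls 2 or 4, BAT controls 1, 3 or 4, or BAT knockouts 1, 2 or 3. The cause was not tested. Whether the replicate numbers pair the samples cannot be settled with 4 samples in a group. Deviations from the group means correlated at 0.12, 0.015, -0.041 and 0.18 between same-numbered BAT samples, and at -0.20 to 0.17 between the others. Over 32 alternatives Hsd11b1 ranged from -2.34 to -2.01 and passed in 17, Msmo1 from -1.31 to -0.98 (13), Nr4a2 from 1.47 to 1.75 (13) and Magel2 from 1.79 to 3.14 (15). Nr3c1 ranged from -1.18 to -0.87 and passed in 5: probes on every BAT array (-1.03), WAT arrays as 2 samples (-1.03), array weights (-1.09), and without WAT or BAT knockout 4 (-0.96 to -1.13 over single samples left out).

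Genes that changed sign were all uncalled. Without knockouts 1 and 2 these were Abcb1a 0.13, Abcb1b -0.14, Ebp -0.061, Mt3 -0.022, Mt4 -0.32, Slc30a1 0.11, Slc39a8 0.12, Srd5a1 0.011 and Srd5a3 -0.049. With normexp they were Abcb1a 0.42, Cry1 0.30, Fgf21 0.18, Lcn2 0.26, Slc39a14 0.15, Slc39a8 0.19, Srd5a1 0.070 and Srd5a3 -0.019. Median scaling gave Abcb1b -0.059, Ebp -0.037, Mt4 -0.11 and Srd5a3 -0.14; quantile normalization gave Mt4 -0.10 and Srd5a3 -9.4e-05; the mean of probes gave Fdft1 0.19 and Srd5a3 -0.0091; the muscle covariate gave Ckm -0.10, Ckmt2 -0.18 and Mt4 -0.15; array weights gave H6pd 0.034 and Srd5a3 -0.033. Leaving out single samples gave ranges of -0.12 to 0.10 for Abcb1a, -0.090 to 0.23 for Abcb1b, -0.083 to 0.035 for H6pd, -0.098 to 0.22 for Mt4, -0.081 to 0.052 for Slc30a1, -0.14 to 0.10 for Slc39a14, -0.25 to 0.015 for Slc39a8 and -0.084 to 0.057 for Srd5a3.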

Other observations

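Interferon response genes were higher in 19 of 21, with 4 above all controls (19%, against 9.34% of all features), none past the threshold, and a median of 0.44 that was 0.17 without knockouts 1 and 2. Ddx58, the RNA sensor RIG-I, was at -0.91 to -0.87 in controls and at 0.80, 0.61, -0.30 and -0.58 in knockouts. Oasl2, an oligoadenylate synthetase-like gene, was at -1.26 to -0.84 in controls and -0.44 to 0.17 in knockouts.

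Orm1, an orosomucoid relative of Orm3, was at 2.60, 3.08, 2.35 and 2.64 in controls and at 0.94, 0.76, 1.58 and 1.0 in knockouts (-1.60 ± 0.59, adjusted p = 0.280), 3.03-fold lower without overlap. Probes of these close relatives may share signal. Of the adipokine genes, Lep differed by 0.019 and Nampt, which makes the precursor of NAD, by -1.05 ± 0.32 with overlap.

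Abhd5, the co-activator of the triglyceride lipase Pnpla2, was at 2.36, 2.56, 2.66 and 2.76 in controls and at 0.11, 0.67, 1.58 and 1.94 in knockouts, while Pnpla2 differed by 0.022. Clock genes had 11 of 19 higher and 8 lower, with Clock itself below all controls at -0.40.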
